A study of Mus musculus with 4 samples.

Results

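The comparison set the second replicate library of each genotype against the first one in mouse embryonic stem cells, across all genes and with genotype held as a blocking term. It used 4 of the 4 libraries of the series: 2 first-replicate libraries (1 wt, 1 dKO) and 2 second-replicate libraries (1 wt, 1 dKO), chosen by the replicate number in their titles. Both genotypes carry the strain label ZHBTc4, a stem cell line in which, as background, both endogenous copies of Pou5f1 are disrupted and a tetracycline-repressible Pou5f1 transgene takes their place; wt cells keep the B-type lamins, and dKO cells lack both Lmnb1 and Lmnb2. Each library was made from Trizol-extracted total RNA with Illumina TruSeq RNA reagents. The study's design text calls the repeats biological replicates. The labels give no treatment or time, do not say whether a genotype is 1 clone or several, and do not say whether libraries with the same number share a culture, day or batch. Culture, RNA preparation, library preparation and sequencing therefore cannot be told apart in what follows, and each p-value measures only the spread between these 4 libraries.

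As background, mouse embryonic stem cells move between a naive state, held by LIF and STAT3 signalling and marked by factors such as Nanog, Klf4 and Tbx3, and a primed state closer to the postimplantation epiblast, marked by Fgf5 and favoured by FGF and ERK signalling. BMP signals through SMAD proteins to the Id genes, Nodal signals to Lefty1, and beta-catenin acts with TCF and LEF factors.

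The genotype labels were checked first. Lmnb1, a B-type lamin of the nuclear envelope, was at 667 and 547 CPM (normalised read counts, scaled by library size and TMM) in wt replicates 1 and 2 and at 4.24 and 6.02 CPM in dKO replicates 1 and 2. For Lmnb2, the other B-type lamin, the values were 105 and 117 CPM in wt and 2.52 and 3.28 CPM in dKO. Both genes matched the labels in all 4 libraries, and neither was called between replicate numbers (log2 fold change -0.12 for Lmnb1 and 0.20 for Lmnb2). Total counts were 12899964 to 16697970 per library, 19244 to 19953 genes had a count, and 3.08% to 3.84% of counts came from mitochondrial genes, with the lower pair in the first-replicate libraries (3.24% in wt, 3.08% in dKO) and the higher pair in the second (3.81% and 3.84%). Every pair of libraries differed by more than counting noise. The chi-square statistic divided by its degrees of freedom was 13.04 for the first-replicate pair and 15.3 for the second-replicate pair, against 20.1 between the wt libraries and 20.04 between the dKO libraries. The stem cell markers Pou5f1, Sox2, Nanog, Zfp42, Esrrb, Dppa5a, Tdgf1 and Utf1 were above 200 CPM in every library.

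Between replicate numbers, 3048 of 14027 tested genes were called at an adjusted p under 0.05 (21.7% of tested genes; edgeR quasi-likelihood test, Benjamini-Hochberg adjustment). Of these, 1723 were higher in the second-replicate libraries (12.3% of tested genes) and 1325 were lower (9.45%). At least 2-fold changes were called for 747 genes, 515 higher and 232 lower. In 1583 of the 1723 higher genes both second libraries lay above both first ones, and in 1239 of the 1325 lower genes both lay below; over all tested genes, 26.1% lay above in this way and 26.2% below. The median absolute log2 difference over all tested genes was 0.22, and 78.8% of genes were within 0.5 of 0 on the log2 scale. Genotype, tested the same way, called 12 genes without a term for the replicate number (0.0855% of tested genes) and 1299 with it (9.26%); 515 genes were called for both the replicate number and, with that term, the genotype. The spread behind each p-value rests on 1 residual degree of freedom and on the spread shared across genes. That degree of freedom measures how far the wt and dKO differences disagree, so calls favour genes in which they agree. The counts of called genes without overlap follow in part from this. An exact permutation test of 2 libraries against 2, with genotype ignored, could not go below p = 0.333. Permuting within each genotype allows fewer arrangements, so its floor is higher. DESeq2 called 941 genes, edgeR without the genotype term called 106, and leaving out 1 library as well gave 0 without wt replicate 1 or dKO replicate 1 (1820 and 1602 at an unadjusted p under 0.05), 93 without wt replicate 2 and 307 without dKO replicate 2.

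**Figure D1:**
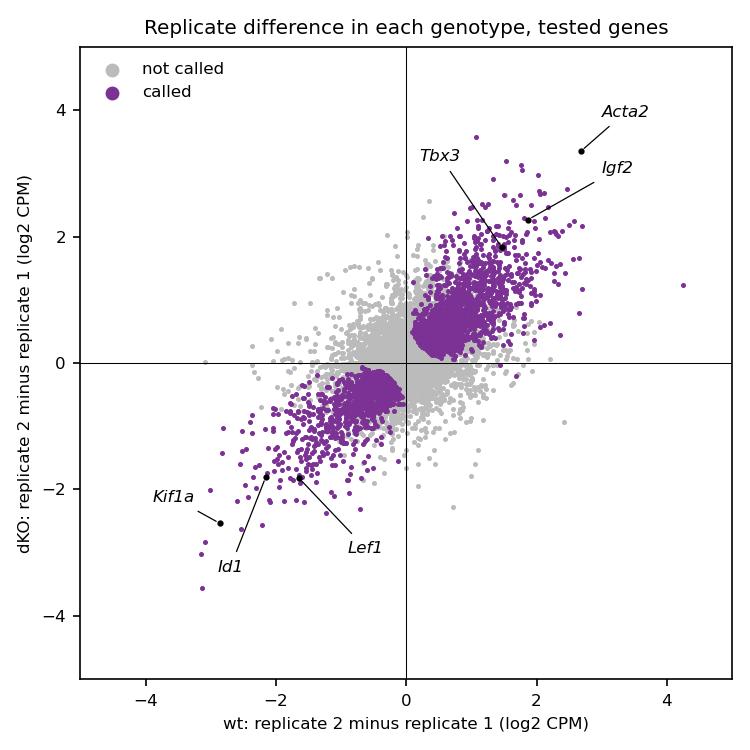
Log2 CPM difference between replicate 2 and replicate 1 in wt (x axis) and in dKO (y axis), with 1 point per tested gene. Called genes (purple) lie in the lower left and upper right except for 2 with opposite signs. The test favours genes whose wt and dKO differences agree, so this follows in part from the call. Of all tested genes, 10144 of 14027 (72.3%) had the same sign in both genotypes. The value r = 0.65 is a description across genes, which are not independent replicates.

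The 12 largest rises and 12 largest falls among well-expressed protein-coding genes ran from a log2 change of 3.02 to 1.60 and from -2.71 to -1.52. The choice of these 24 required that the first and second libraries did not overlap. Each was also called by DESeq2; 13 of the 24 were called by edgeR without the genotype term. Levels are given below for wt and then dKO.

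Acta2, smooth muscle actin, led the rises. This gene (ENSMUSG00000035783) lies on chromosome 19, from 34315580 to 34329826 in the table's own coordinates, whose build is not given in the sources used here. Its level was 5.63 and 2.64 CPM in the first libraries and 36.8 and 28.2 CPM in the second ones, a log2 fold change of 3.02 (SE 0.17, adjusted p = 1.2e-10). Both second libraries were above both first ones by more than the distance between genotypes. Atp2b4, a plasma membrane calcium pump, was at 10.9 and 6.69 CPM in the first libraries and 53.8 and 27.98 CPM in the second (log2 2.19). Krt7, a keratin of simple epithelia, went from 9.30 and 4.97 to 36.4 and 24.2 CPM (log2 2.11). Igf2, an imprinted growth factor, went from 32.5 and 26.3 to 119 and 127 CPM (log2 2.07, SE 0.11). The second libraries of wt and dKO were closer to each other than to their own first library for Igf2.

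Lats2, a kinase of the Hippo pathway and itself a YAP target, was at 8.99 and 8.41 CPM in the first libraries and 32.6 and 28.2 CPM in the second. Tbx3, a T-box factor of the naive network, was at 103 and 87.8 CPM and then 285 and 312 CPM (log2 1.65, adjusted p = 1.2e-10). Each of these 2 genes differed less between genotypes within a replicate number than between the numbers. Rises were also called in Arl14epl (2.04), the mitochondrial thiolase Acaa2 (1.83), the homeobox genes Zfhx2 (1.82) and Meis2 (1.68), and the X-linked homeobox gene Rhox9 (1.60), all as log2 fold changes; Rhox9 has the near-identical neighbour Rhox6, between which reads may be divided. Leaving out 1 library, with no genotype term, moved some of these changes by over 1.5-fold. Such fits are unbalanced in genotype, so their estimates take in the genotype difference as well. Arl14epl was at 1.32 without dKO replicate 1 and 3.04 without wt replicate 1, and was called in none of these fits (lowest adjusted p = 0.21). Zfhx2 was at 1.18 without wt replicate 2 and 2.42 without dKO replicate 2, Rhox9 was at 0.96 without wt replicate 2, and Acta2 was at 3.63 without wt replicate 1.

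Kif1a, a kinesin motor of axonal transport, led the falls. It was at 82.01 and 62.6 CPM in the first libraries and 11.2 and 10.7 CPM in the second, a log2 fold change of -2.71 (SE 0.12, adjusted p = 4.6e-13). The second libraries of wt and dKO were nearly equal. Slc23a1, a vitamin C transporter, went from 31.6 and 38.1 to 5.79 and 8.65 CPM (log2 -2.28). Id1, an inhibitor of helix-loop-helix factors and a BMP target, went from 35.3 and 34.7 to 7.82 and 9.84 CPM (log2 -1.99, SE 0.14). Trh, the thyrotropin-releasing hormone precursor, went from 391 and 295 to 123 and 113 CPM (log2 -1.52). The 2 genotypes lay close together at each replicate number in these genes. The other falls, as log2 fold changes, were in Coch (-1.90), the Wnt effector Lef1 (-1.77), Fndc3c1 (-1.72), the endocytic receptor Cubn (-1.66), Tspan7 (-1.66), and the epithelial genes Ap1m2 (-1.63), Esrp1 (-1.54) and Cldn6 (-1.52), which encode a sorting adaptor, a splicing regulator and a claudin. Coch was at -2.61 without dKO replicate 2.

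**Figure D2:**
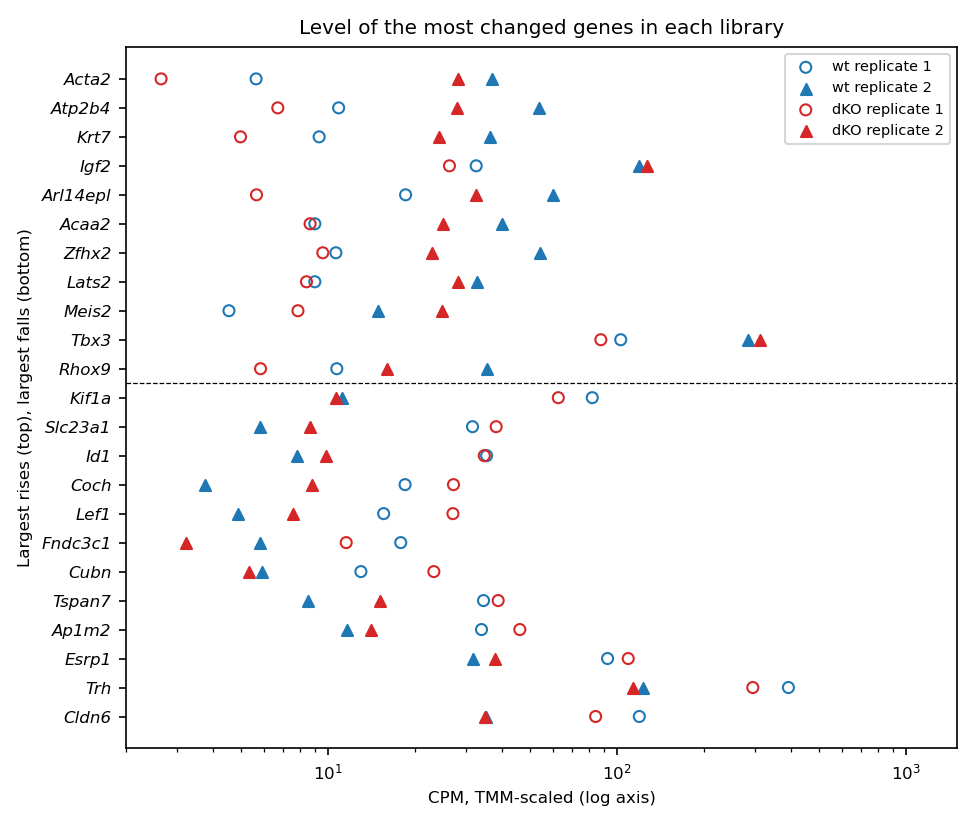
CPM on a log axis in each of the 4 libraries (blue wt, red dKO, circles replicate 1, triangles replicate 2) for the largest rises and falls reported here. The choice of genes required triangles to the right of both circles above the dashed line, as for Acta2 at 36.8 and 28.2 against 5.63 and 2.64 CPM, and to the left of both below it.

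Actin genes did not move together. Acta1, skeletal muscle actin, went from 4.14 and 2.33 to 10.8 and 7.81 CPM (log2 1.55), rising with Acta2. Actg1, cytoplasmic gamma-actin, went from 344 and 345 to 254 and 284 CPM (log2 -0.36, adjusted p = 0.0059), a fall. Actb, cytoplasmic beta-actin, was at 2281 and 2218 CPM in the first libraries and 1976 and 2113 CPM in the second, and was not called (log2 -0.14). Serum response factor is known to bind CArG boxes (searched here as CC, 6 bases that are each A or T, GG) before actin genes, so the 150 bases before the start of the 3 genes called are shown, from RefSeq on GRCm38.p6, minus strand, written 5′ to 3′ with a CArG box in capitals on either strand. They span chr19:34255374-34255523 for Acta2, chr8:123894776-123894925 for Acta1 and chr11:120348496-120348645 for Actg1.
Acta2: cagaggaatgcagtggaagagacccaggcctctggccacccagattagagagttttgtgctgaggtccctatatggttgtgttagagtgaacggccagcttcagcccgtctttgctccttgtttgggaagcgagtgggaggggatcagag
Acta1: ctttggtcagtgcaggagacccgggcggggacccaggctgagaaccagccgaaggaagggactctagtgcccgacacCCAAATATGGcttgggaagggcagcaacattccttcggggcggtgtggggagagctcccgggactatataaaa
Actg1: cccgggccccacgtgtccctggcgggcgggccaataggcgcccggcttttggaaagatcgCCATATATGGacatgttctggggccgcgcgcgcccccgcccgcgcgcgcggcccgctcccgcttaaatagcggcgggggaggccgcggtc
A CArG box stood before Acta1, which rose, and before Actg1, which fell, and the Acta2 stretch held no match of this form. It held 1 shorter form, with 5 bases of A or T between CC and GG, which the search did not count. This form lies within ccctatatgg. That stretch and ccttgtttgg, also before Acta2, each have CC, 6 bases and GG, with 1 C or G among the 6. The search allowed no C or G there, so it could miss sites of this kind. Binding was not tested. In windows from 250 bases before to 50 bases after the start, a CArG box was found for 1.37% of genes called higher, 1.55% of genes called lower and 1.52% of the 10516 tested genes with a window, and in 1.63% of all windows. Of the 30 tested genes of a list of actin, SRF and YAP targets, 5 were called higher and 6 lower (16.7% and 20%). Over all tested genes the shares were 12.3% and 9.45%. The median log2 change of the list was 0.00. Besides Acta2, Lats2 and Acta1, the falls in Cnn1 (-0.98) and Myl9 (-0.85), which encode calponin and a myosin light chain, were called on the log2 scale by edgeR but not by DESeq2.

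The naive pluripotency list moved up in more members than it moved down. Of 19 tested members 9 were called higher and 1 lower, 52.6% against 21.7% of all tested genes, and the median log2 change was 0.26 against 0.00. Pecam1, a cell surface adhesion molecule marking the naive state, went from 104 and 105 to 166 and 186 CPM (log2 0.76, adjusted p = 1.9e-06). Tfcp2l1, a transcription factor of the naive network, went from 450.3 and 542 to 919 and 749 CPM (log2 0.75). Nanog went from 449 and 416 to 629 and 631 CPM (log2 0.55). These rises, and that of Tbx3, were present in both genotypes without overlap; the rise of Tfcp2l1 was not called by DESeq2. Gbx2, a homeobox gene and LIF target, went the other way, from 16.03 and 24.6 to 6.64 and 10.2 CPM (log2 -1.27). Pou5f1, expressed from the transgene in this line, was at 876 and 790.2 CPM in the first libraries and 751 and 822 CPM in the second, and was not called (log2 -0.08).

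The wider pluripotency list had 2 members called higher and 6 lower of 18 (11.1% and 33.3%, against 12.3% and 9.45% of tested genes). Its median was -0.08. Alpl, alkaline phosphatase, rose from 93.8 and 66.4 to 144 and 156 CPM (log2 0.93). Epcam, an epithelial adhesion molecule of pluripotent cells, fell from 223 and 263 to 106 and 137 CPM (log2 -1.002, SE 0.09). Lin28a, an RNA-binding inhibitor of let-7 processing, fell from 538 and 488 to 351 and 377 CPM (log2 -0.49). The formative and primed epiblast list had 5 of 15 higher and 6 lower (33.3% and 40%), with a median of -0.19. The median difference was -0.36 in wt and 0.03 in dKO. Fgf15 and Fgf5, growth factors of the epiblast, were low and fell: 6.25 and 6.20 to 1.84 and 1.85 CPM for Fgf15 (log2 -1.75) and 3.83 and 3.56 to 1.31 and 0.954 CPM for Fgf5 (log2 -1.71, not called by DESeq2). Lef1 went from 15.6 and 27.01 to 4.86 and 7.58 CPM. Krt18 (1.25), Foxd3 (0.66) and Tead2 (0.53) rose, as log2 changes, so members of this list went both ways. The neuroectoderm list had 1 of 7 higher and 4 lower (14.3% and 57.1%). Nes, the intermediate filament nestin, led the falls, from 59.6 and 40.03 to 22.8 and 16.7 CPM (log2 -1.33).

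**Figure D3:**
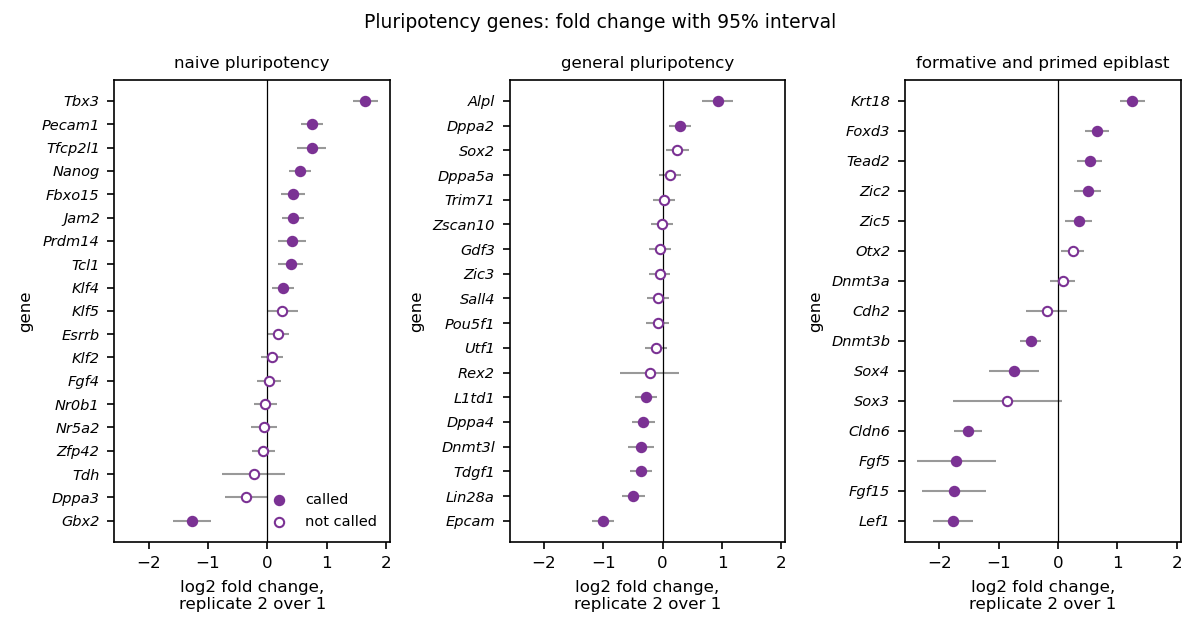
Log2 fold change of replicate 2 over replicate 1 (x axis) with its 95% interval for each tested gene of the naive, general pluripotency and formative or primed lists. Filled points were called; Tbx3 (1.65) leads the naive rises and Lef1 (-1.77) the epiblast falls.

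More keratin and trophectoderm genes were called higher than lower in the second libraries. In the trophectoderm and simple keratin list 8 of 16 tested members were called higher and 1 lower (50% and 6.25%, against 12.3% and 9.45% of all tested genes), with a median log2 change of 0.68. Krt8 went from 128 and 64.2 to 249 and 176 CPM (log2 1.21), and its partner Krt18 from 119 and 66.3 to 247 and 182 CPM. Hand1, a trophoblast and mesoderm factor, rose from 2.89 and 1.72 to 6.11 and 7.16 CPM (log2 1.56), and Esx1, a placental homeobox gene, rose from 3.21 and 3.13 to 8.02 and 9.19 CPM (log2 1.44). Gata3, a trophoblast regulator, rose from 8.68 and 6.88 to 18.999 and 15.3 CPM (log2 1.14). Lgals3, a galectin, fell (log2 -0.77). The summed level of the list was 555 and 393 CPM in the first libraries and 849 and 664 CPM in the second. Simple keratins make up much of this sum. All tested keratins alone summed to 304 and 163 CPM in the first libraries and 596 and 423 CPM in the second. The defining trophoblast markers were at or near 0: Cdx2 was at 0.89 to 1.33 CPM in the 4 libraries and was not called, Elf5 at 0.12 to 0.33 CPM, and Tpbpa at 0, which allows up to 3 counts in each library. Among all keratins, which share Krt7 and others with the list above, 5 of 9 tested genes were called. Each of the 5 was higher, and the median over the 9 was 1.21.

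Matrix genes were also called higher more often than lower. In the collagen and laminin list 16 of 40 tested members were called higher and 2 lower (40% and 5%), with a median of 0.65; 1 of the 16, Col4a3bp, carries a collagen's name but encodes a ceramide transporter. Col5a1, a fibrillar collagen, rose from 12.4 and 9.03 to 29.4 and 18.7 CPM (log2 1.15), and the basement membrane chain Col4a1 rose from 64.1 and 67.6 to 127 and 113 CPM (log2 0.86). Sparc, a matrix-binding glycoprotein, went from 219 and 153 to 387 and 295 CPM (log2 0.88). Col7a1 and Col18a1 fell (log2 -0.69 and -0.32, neither called by DESeq2). Of the list's 3 largest called rises, DESeq2 did not call Col20a1 or Lama3 and gave no adjusted p for Col1a2. It did call Col5a1. The fibroblast marker list had 7 of 15 tested members higher and 1 lower (46.7% and 6.67%, median 0.42). Col1a2, a chain of type I collagen, rose from 0.469 and 0.491 to 2.96 and 0.716 CPM (log2 1.75), and Pdgfrb, a growth factor receptor, from 1.02 and 0.0614 to 3.68 and 0.418 CPM (log2 1.95, but -0.26 without wt replicate 2); DESeq2 gave no adjusted p for either. Other markers of the list were low: Col1a1 was at 1.19 to 2.83 CPM in the 4 libraries and was not called, Col3a1 was at 0.06 to 0.43 CPM, and Postn and Dcn were at 0 to 0.20 CPM. The list summed to 1242 and 1480.0 CPM in the first libraries and 1616 and 1774 CPM in the second. Its median member was at 2.92 CPM, so the sum rests on members far above that level and not on the low markers named here. Fbn1, fibrillin, fell (log2 -1.07, not called by DESeq2). The primitive endoderm list, which shares Col4a1, Col4a2 and Lamc1 with the matrix list, had 5 of 18 higher and 3 lower (27.8% and 16.7%). Its median log2 change was -0.20, and 10 of the 18 estimates were negative. Its defining factors Gata4, Gata6 and Sox17 were at 0.59 to 7.55 CPM. Their estimates were negative (log2 -0.40, -0.85 and -1.17) and were not called. The sum of the list was 1882 and 2129.6 CPM in the first libraries and 2221 and 2662 CPM in the second. Sox7 fell (log2 -0.75), but was not called by DESeq2 and was at 0.0924 without dKO replicate 1. The blood marker list had 3 of 6 tested members higher and 1 lower (50% and 16.7%). Its sums were 139.9 and 163 CPM in the first libraries and 155 and 238 CPM in the second. Lcp1 (1.66), Spi1 (1.26) and Laptm5 (0.36) rose. Laptm5 went from 104 and 135 to 116 and 198 CPM and held most of these sums. Its log2 change was -0.0432 without dKO replicate 2. DESeq2 called neither Spi1 nor Laptm5. Tyrobp was at 0 in every library and Ptprc had 1 count in 1 library. The part that such cells play in these values was not tested, and in bulk samples fewer cells of a type and less RNA per cell cannot be told apart.

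Signalling targets split within each pathway. In the BMP and SMAD1/5 list 6 of 16 were called higher and 5 lower (37.5% and 31.2%, against 12.3% and 9.45% of all tested genes), with a median of 0.28. Besides Id1, which fell to 7.82 and 9.84 CPM from 35.3 and 34.7 CPM, the secreted BMP antagonist Grem1 fell (log2 -2.21), as did Msx1 (-1.07), while the inhibitory SMAD gene Smad6 (1.61), Hand1 and Msx2 (1.51) rose. The DESeq2 test did not call Smad6 or Msx1 and gave no adjusted p for Grem1, and all of these but Id1 were below 8 CPM in every library. The homeobox relatives Msx1 and Msx2 moved in opposite directions at low levels. In the Nodal and TGF-beta list 3 of 14 were higher and 6 lower (21.4% and 42.9%), with a median of -0.28. Lefty1, a Nodal antagonist, fell from 78.5 and 83.3 to 31.2 and 48.4 CPM (log2 -1.05). Skil, a SMAD corepressor, fell from 147 and 175 to 80.5 and 89.5 CPM. Smad7, an inhibitory SMAD, rose from 75.99 and 76.4 to 146 and 178 CPM (log2 1.09), and Tgfbi (1.16, not called by DESeq2) rose as well.

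The Wnt list had 2 of 12 higher and 3 lower (16.7% and 25%), with a median of -0.16. The median difference was 0.03 in wt and -0.31 in dKO. Lef1 and Ccnd1 (-0.44, cyclin D1) fell and the low gene Dkk1, a Wnt antagonist, rose (log2 1.41, no adjusted p in DESeq2). In the immediate-early and ERK feedback list 3 of 27 were higher and 9 lower (11.1% and 33.3%), with a median of -0.17. Egr1, an immediate-early transcription factor, rose from 29.8 and 44.7 to 78.03 and 135 CPM (log2 1.501, adjusted p = 3.7e-10). Spry4, a feedback inhibitor of ERK signalling, fell from 247 and 353 to 126 and 211 CPM (log2 -0.85), and Spry1 fell from 20.2 and 30.9 to 12.7 and 17.1 CPM (log2 -0.77). Egr1 and the Spry genes went in opposite directions in both genotypes. In the LIF and STAT3 list 5 of 17 were higher and 3 lower (29.4% and 17.6%), with a median of 0.00; Pramef12 (0.79) and the kinase Pim1 (0.48) led the rises.

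**Figure D4:**
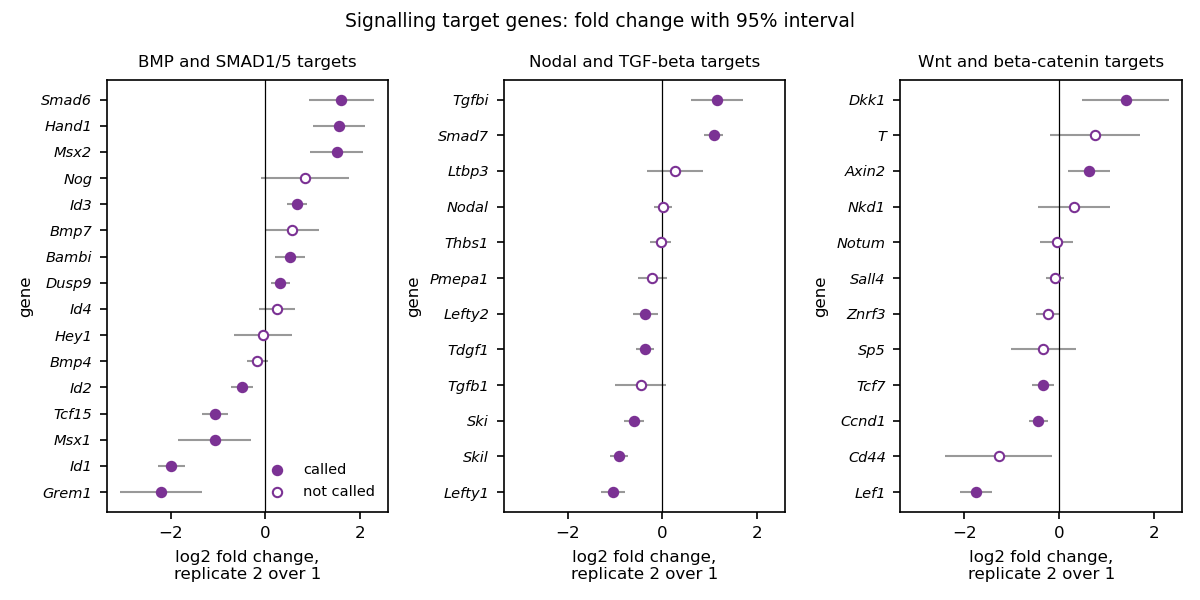
Log2 fold change of replicate 2 over replicate 1 (x axis) with its 95% interval for targets of BMP, of Nodal and TGF-beta, and of Wnt. Members of each pathway lie on both sides of 0, from Smad6 at 1.61 to Grem1 at -2.21 in the BMP panel.

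More glycolysis and oxidative stress genes were called lower than higher in the second libraries. In the hypoxia and glycolysis list 3 of 31 were higher (9.68%, against 12.3% of all tested genes) and 9 lower (29.0%, against 9.45%), with a median of -0.16 that was 0.021 without dKO replicate 2 and the genotype term. Slc16a3, a lactate exporter, fell from 55.2 and 46.2 to 19.6 and 16.5 CPM (log2 -1.49, adjusted p = 2.1e-09). Bnip3, a hypoxia-responsive mitophagy gene, fell from 46.4 and 41.6 to 20.2 and 16.6 CPM (log2 -1.26), and Ldha, lactate dehydrogenase, fell from 679 and 661 to 466 and 325 CPM (log2 -0.78). Hk1 (0.94), Vegfa (0.48) and Pfkp (0.42) rose, so the list did not move as one. In the NRF2 and metallothionein list 1 of 17 was higher (5.88%) and 10 lower (58.8%), with a median of -0.34. Mt1, a metal-binding metallothionein, fell from 417 and 404 to 218 and 244 CPM (log2 -0.83). Gpx2, a glutathione peroxidase, fell from 10.7 and 8.35 to 3.62 and 2.57 CPM (log2 -1.63). G6pdx, the first enzyme of the pentose phosphate pathway, fell from 69.03 and 71.5 to 44.9 and 41.2 CPM (log2 -0.71).

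Other stress lists had calls in both directions. The unfolded protein and heat shock list had 3 of 20 higher and 6 lower (15% and 30%, against 12.3% and 9.45% of tested genes). In it 15 estimates were negative. The chaperones Hsph1 (-0.73) and Hspa8 (-0.47) fell, and Herpud1, an endoplasmic reticulum stress gene, rose (log2 1.0004). The p53 target list had 3 of 27 higher and 4 lower, with 23 negative estimates, the ATF4 list 3 of 28 higher and 3 lower, and the lysosome and autophagy list 3 of 22 higher and 3 lower. Their shares called, 25.9%, 21.4% and 27.3%, were near the 21.7% of all tested genes. In the last list Ctsl, a lysosomal protease, had the largest fall (log2 -0.75). In the interferon list 3 of 19 were higher and 5 lower (15.8% and 26.3%), led by Bst2 (-0.89) among genes above 10 CPM. The cholesterol and fatty acid list had 2 of 26 higher and 2 lower (7.69% each). Scd1, a fatty acid desaturase, rose from 31.9 and 35.1 to 79.6 and 68.1 CPM (log2 1.13).

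The mitosis list had 1 of 30 called (3.33%, against 21.7% of all tested genes), the anaphase activator Cdc20, which fell (log2 -0.33). The replication list had 4 of 34 higher, near the share of all tested genes (11.8% against 12.3%), and 1 lower (2.94% against 9.45%). Tk1, thymidine kinase, was its largest rise (log2 0.75). Cytoplasmic ribosomal protein genes shifted down by a small amount: 83 of 88 had a negative estimate, and the median was -0.16. Of the 88, 13 were called lower and 2 higher (14.8% and 2.27%, against 9.45% and 12.3% of all tested genes). The 2 called higher, Rpl39l (0.95) and Rpl10l (0.40), are copies used mainly in the male germ line. The median ribosomal protein gene was at 489 CPM. In the highest of 5 groups by mean CPM, 14.5% of genes were called lower and the median was -0.07. Translation factors and their modifiers had 11 of 65 lower and 1 higher (16.9% and 1.54%), with a median of -0.15. Transcripts of the mitochondrial genome had a median of 0.19, with 4 of 26 called, each of them higher (15.4%, near the 12.3% of all tested genes); mt-Nd1, a complex I subunit, went from 2417 and 2204 to 3232 and 2874 CPM (log2 0.40). Nuclear genes of the respiratory chain had a median of -0.01 with 4 of 88 higher and 2 lower (4.55% and 2.27%). Scaling by total counts alone moved the median of all tested genes to 0.04.

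Imprinted genes changed in both directions. Of 23 tested members 4 were called higher and 8 lower (17.4% and 34.8%, against 12.3% and 9.45% of all tested genes). Beside Igf2, the noncoding RNA H19 from the same locus rose from 186 and 94.2 to 331 and 241 CPM (log2 1.09). In the Dlk1 and Meg3 domain both genes fell: Meg3, a noncoding RNA, went from 511 and 650.1 to 191 and 261 CPM (log2 -1.37, adjusted p = 3e-10), and Dlk1, a Notch-like ligand, from 4.46 and 4.79 to 1.12 and 0.954 CPM (log2 -2.16). Igf2 and H19, of opposite parental expression, rose together, and Dlk1 and Meg3, also of opposite parental expression, fell together. The germline list had 5 of 18 called each way (27.8% each). Tuba3a, a testis tubulin, rose from 9.69 and 8.04 to 22.5 and 21.5 CPM (log2 1.32), and has the near-identical copy Tuba3b. The piRNA-pathway gene Tdrd1 fell from 6.33 and 10.9 to 2.24 and 4.65 CPM (log2 -1.34).

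The replicate difference also varied with expression level. Genes were divided by mean CPM into 5 groups of equal size. From the lowest to the highest group, the median log2 change went from 0.14 to -0.07, the share called higher from 10.4% to 8.73% with its highest value of 16.3% in the second-lowest group, and the share called lower from 4.53% to 14.5%. From the lowest to the highest of 5 groups by GC content, the median log2 change went from -0.04 to 0.02 and the share called higher from 8.20% to 15.0%. From the shortest to the longest of 5 groups by transcript length, the share called higher went from 8.34% to 17.6%, and the median went from -0.07 to 0.09 in wt and from 0.01 to -0.01 in dKO. Of the 3048 called genes, 2949 were protein-coding, as were 13022 of the 14027 tested genes.

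**Figure D5:**
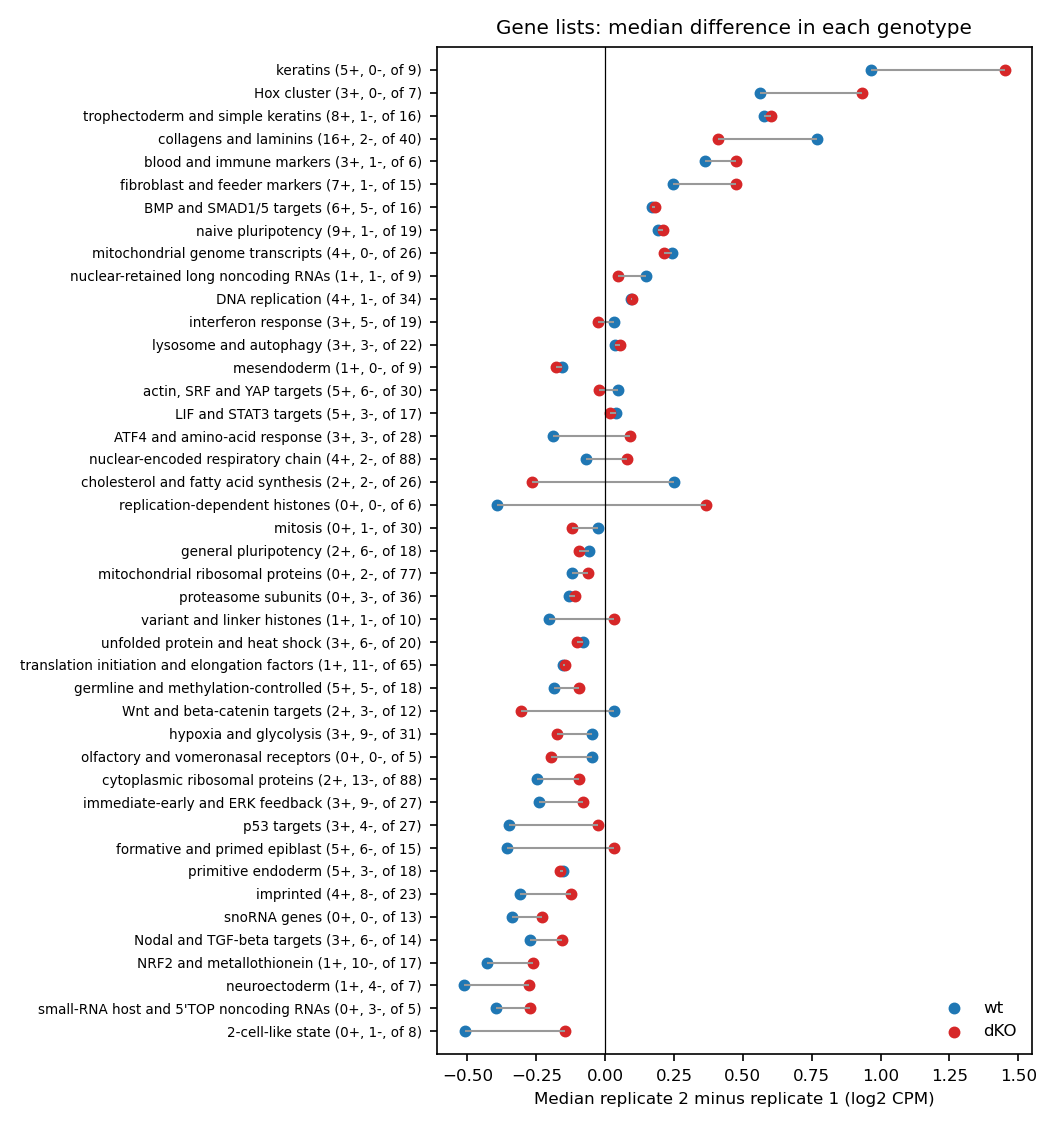
Median log2 CPM difference of replicate 2 minus replicate 1 (x axis) for lists with at least 5 tested genes, in wt (blue) and dKO (red); brackets give members called higher (+) and lower (-) of those tested. Keratins, with a median log2 change of 1.21, and collagens and laminins, at 0.65, lie to the right in both genotypes.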

How the data were processed

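RNA from 4 libraries of mouse embryonic stem cells was measured as deposited raw read counts per Ensembl gene in 1 table. The submitters' processing notes name TopHat2 2.0.6, TopHat and HTSeq, with no role. The build, and whether strand was used, are not given in the sources available, so antisense, overlapping and near-identical genes are uncertain. GENCODE M21, matched by gene ID, gave symbols to 32919 of 37991 genes. Total counts were 12899964 to 16697970, so 1 count is worth 0.0596 to 0.0781 CPM. No values were taken from columns outside the 4 libraries.

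After filterByExpr and TMM scaling, the quasi-likelihood F test of edgeR 4.0.16 (run in R 4.3.3) was fitted on genotype plus replicate number. Log2 fold changes are second minus first replicate, and a call is a Benjamini-Hochberg adjusted p under 0.05 over 14027 genes, 367 of them without a symbol. Alternatives used DESeq2 1.42.0, limma 3.58.1 (voom), other scalings and filters, a GC and length trend, a 1.5-fold test and left-out libraries. The code was tested on simulated data.

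The comparison and its 45 gene lists were chosen with earlier results of these data known, and named genes came from 1 rule. The 12 largest rises and 12 largest falls were taken among called protein-coding genes with an average log2 CPM of at least 3, no predicted name and replicate groups that did not overlap. Up to 3 called genes in each direction came from each list, or the 2 with the highest CPM where none was called. Other genes, among them Actb, Actg1, Krt8 and Col4a3bp, were chosen after their values were seen. Some genes that the rule allows are left out of the text and plots. Promoter sequences are from RefSeq, GRCm38.p6.

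Same-numbered libraries deviated together (r = 0.65 across genes between the wt and dKO differences), but a shared number is all that the labels give.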

Additional observations from a re-analysis of the deposited data

Results flagged for a closer look

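The median change of the cholesterol and fatty acid list went up in wt (0.25) and down in dKO (-0.27) between replicate 1 and replicate 2, on the log2 CPM scale. The 6 tested replication-dependent histone genes, whose transcripts mostly lack a poly(A) tail, went down in wt (-0.39) and up in dKO (0.37). Both were marked because the list medians had opposite signs in the genotypes and were each at least 0.2 in size. Other lists also had opposite signs but did not reach that size in both genotypes. Among them were the formative and primed epiblast list (-0.36 in wt, 0.03 in dKO) and the Wnt list (0.03 in wt, -0.31 in dKO). The difference between genotypes was not tested.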

How the results depend on the processing

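The count of 3048 genes was 941 by DESeq2 (940 of them among the 3048), 407 against a 1.5-fold minimum, 1690 at an adjusted p under 0.01 and 106 without the genotype term. The count of 747 genes changed at least 2-fold was 297 by DESeq2, 78 without the genotype term, and 0, 75, 0 and 221 without wt replicate 1, wt replicate 2, dKO replicate 1 and dKO replicate 2. Other settings gave 3001 to 3792 genes. With the GC and length trend removed, 47.3% of calls were higher, against 56.5% in the report and 66.3% with total counts. Leaving out 1 library, with no genotype term, gave 0 to 307 genes: 0 without wt replicate 1 (1820 at an unadjusted p under 0.05, edgeR) or dKO replicate 1 (1602), 93 without wt replicate 2 and 307 without dKO replicate 2. These fits have fewer libraries and no genotype term, and DESeq2 was not run on them. Each sets 1 library of 1 genotype against libraries of both genotypes, so its estimate takes in the genotype difference as well. A sign can therefore turn though both genotypes moved the same way, as for Sox7 (log2 difference -1.09 in wt and -0.54 in dKO). Of 186 named genes called, 98 were called by DESeq2 and 27 without the genotype term. With 1 library left out, these signs could turn: Sox7 -1.92 to 0.0924, Fos -0.21 to 1.08, Oas1a -0.17 to 2.30, Pdgfrb -0.26 to 4.89, Laptm5 -0.0432 to 0.73, Cox7a2 -0.0904 (without wt replicate 2) and -0.0674 (without dKO replicate 1) to 0.71 and Eif2s2 -0.0041 (without dKO replicate 1) and -0.0020 (without wt replicate 2) to 0.57. With the replicate number as a block, the genotype comparison gave 1299 genes in place of 12; the libraries share only a number, with 2 pairs. Under the other scalings, filters and tools, list medians that changed sign were at most 0.106 in size in the report. With 1 library left out and no genotype term, 4 to 8 of 44 list medians changed sign, among them the 2-cell list (-0.43 to 0.56 without wt replicate 1), the primitive endoderm list (-0.20 to 0.0475, dKO replicate 1 left out), actin, SRF and YAP targets (0.00 to -0.17 without wt replicate 2) and lamins, which hold the deleted genes (-0.25 to 2.20 without wt replicate 1). Depth (12899964 to 16697970 counts) limits low genes.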

Other observations

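A set of epithelial genes outside the lists, chosen after their values were seen, fell in the second libraries of both genotypes. Grhl2, an epithelial transcription factor, went from 55.7 and 56.5 to 29.5 and 28.9 CPM (log2 -0.94, edgeR adjusted p = 8.3e-07), and Cldn7, a claudin, from 34.5 and 29.1 to 14.6 and 14.9 CPM (log2 -1.10). Sfn, an epithelial 14-3-3 protein, went from 84.7 and 59.8 to 31.5 and 22.8 CPM (log2 -1.41), and Cdh1, E-cadherin, from 490.1 and 517 to 377 and 353 CPM (log2 -0.46). Bspry (-1.32) and the desmosomal plakin Ppl (-1.31) fell too, in the direction of Epcam, Esrp1 and Ap1m2 and against that of the keratins Krt7, Krt8 and Krt18. Not all epithelial genes moved: Cldn4 (-0.26) and Dsp (0.19) were not called, and neither was Snai1 (-0.22), a repressor of Cdh1. Vim, vimentin, rose from 153 and 119 to 182 and 189 CPM (log2 0.46).

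Mitf, a transcription factor of pigment cells and of lysosomal genes, rose from 11.8 and 10.1 to 29.8 and 29.3 CPM (log2 1.44, edgeR adjusted p = 7.3e-08), with both second libraries above both first ones. The Hox list had 3 of 7 tested members called, each of them higher (42.9%, against 12.3% of all tested genes), at low levels, as for Hoxb9, which went from 1.25 and 1.04 to 2.76 and 3.76 CPM (log2 1.52, not called by DESeq2). The CACGTG motif, searched on both strands, was in the promoter windows of 10.1% of genes called higher, 14.5% of those called lower and 11.7% of tested genes; CCAAT was in 44.9%, 36.0% and 43.1%. These shares are a description.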
